A study of Arabis alpina with 27 samples.

Results

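Stems of *Arabis alpina* accession Pajares that had spent 12 weeks at 4°C (12w) were compared with stems that had spent 4 weeks at 4°C (4w). The libraries were chosen by their labels alone, and no measured value entered the choice. They are 6 of the 27 libraries of the series, 3 at 12w and 3 at 4w. The remaining 21 libraries were harvested before cold (0w), at other times in the cold (8w, 16w, 21w) or 5 days after the return to the glasshouse (12w+5dLD, 16w+5dLD, 21w+5dLD). The labels name the accession and no other genotype. Before the cold, every plant had 8 weeks of long days (LD, 16 h of light at 20°C and 8 h of dark at 18°C), and the LD day length was kept at 4°C. Each library pooled the stems of 10 plants and is described as a biological replicate, and the tissue was internodes 9 to 13 of the main stem without the axillary buds. Plants at 12w were 8 weeks older than plants at 4w, so a longer time in the cold and a greater age cannot be told apart in any value below. The comparison asks what still changed in the stem once the first weeks of cold had passed. The study scored flowering and adventitious roots of plants from the same treatments, and these scores were not analysed here.

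Several pathways of the stem bear on this question. The outer surfaces of a stem are sealed by cutin and wax on the epidermis, and by suberin, a related polyester of fatty acids and phenolics, in periderm and wound tissue. Both polyesters are built from oxidised fatty acids that P450 enzymes of the CYP86 family hydroxylate and glycerol-3-phosphate acyltransferases (GPATs) join to glycerol, and ABC transporters of the ABCG family carry the parts out of the cell. Water-conducting xylem and supporting fibers lay down a secondary wall of cellulose, xylan and lignin, the last made from phenylalanine through the monolignol pathway. Nitrate, the main nitrogen source from soil, is taken up by transporters and reduced by nitrate reductase and nitrite reductase. Long cold also acts on flowering in the Pajares accession, in which cold is needed before flowers open after the return to warmth.

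Gene expression was measured by poly-A RNA sequencing. The 6 libraries held 16.7 to 20.5 M counts each. Counts were scaled by library size to CPM, the counts of a gene per M counts of its library, with the TMM method, and 19337 of 21641 genes passed the filter on low counts and were tested by quasi-likelihood in edgeR, in which 1 model held all 27 libraries. A gene counted as called where its p, adjusted by Benjamini-Hochberg, was below 0.05 and its level differed by 2-fold or more. By this rule 148 genes rose at 12w relative to 4w (0.765% of those tested) and 227 fell (1.17%). In DESeq2 the same thresholds called 417 genes higher (2.16%) and 546 lower (2.82%), and 367 of the 375 edgeR calls were among them in the same direction. Below, a gene is said to be called, or not called, by edgeR unless DESeq2 is named. An unadjusted p under 0.05 was reached by 3147 genes (16.3%). The log2 fold change over all tested genes had a median of 0.00. Library 21w+5dLD replicate 3 is in neither group but enters the shared estimate of the spread. In an alternative chosen after the data were seen, 471 genes were called without it, 373 of the 375 among them. Libraries of the 2 groups did not overlap in 25.6% of tested genes and in 357 of the 375 called ones. All 6 phloem markers were in the table, as stem tissue should show, with a summed level of 360 to 425 CPM at 12w and 474 to 614 CPM at 4w. None was called by either tool. *SUC2*, *SEOR1* and *SEOR2* were lower at 12w by less than 2-fold, with adjusted p of 0.0344, 0.049 and 0.0108 in DESeq2. *APL*, *PP2-A1* and *CALS7* had log2 fold changes above 0 (0.39, 0.04 and 0.26). Of 3 shoot meristem markers *STM* was detected and *WUS* was listed at 0 in all 6 libraries. The counts have a limit that touches many genes: 483 tested genes were listed at 0 in 1 library of 12w beside 100 or more counts in both others, and 453 genes were so at 4w. Such zeros may not be true absence, so a gene is described here as listed at 0, and no fold change is given against a group listed at 0 throughout. Genes carry the symbol of the *A. thaliana* homolog that the deposited table lists, and their roles are those known in *A. thaliana*.

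Suberin genes were among those that fell. Of 13 tested genes of this pathway 4 fell (30.8%, against 1.17% of all tested genes) and none rose. The log2 fold change of all 13 was below 0, with a median of -1.43. *CYP86A1* (Aa_G246290), which hydroxylates the fatty acids of suberin, was at 57.9, 68.3 and 47.0 CPM at 12w, against 184, 234 and 202 CPM at 4w. Its log2 fold change came to -1.84 (SE of 0.35, adjusted p = 0.00422, edgeR). *GPAT7* (Aa_G307540), an acyltransferase of the suberin pathway, was at 6.08, 12.4 and 8.21 CPM at 12w, against 40.5, 48.7 and 38.7 CPM at 4w (log2 fold change of -2.26 with SE 0.42, adjusted p = 0.00401). Every 12w library of both genes lay below every 4w library, but called genes were named from the lists only where the groups did not overlap. *CYP86B1* (Aa_G97870), which acts on the longest fatty acids, was at 6.62, 12.7 and 6.27 CPM at 12w and at 37.0, 32.8 and 29.0 CPM at 4w (log2 fold change of -1.95 with SE 0.45, adjusted p = 0.0162). *ABCG2* (Aa_G30120), a transporter of suberin parts, was at 27.7, 46.7 and 34.7 CPM at 12w and at 79.5, 85.0 and 70.3 CPM at 4w (log2 fold change of -1.11 with SE 0.25, adjusted p = 0.0136). Among members that were not called, *GPAT5* (Aa_G285120) had 9.64, 13.9 and 9.15 CPM at 12w and 38.9, 39.6 and 39.9 CPM at 4w (adjusted p = 0.393), and *FACT* (Aa_G559280), a feruloyl transferase, had 111, 95.1 and 108 CPM at 12w and 174, 189 and 165 CPM at 4w (adjusted p = 0.108). In 11 of the 13 genes the libraries of the groups did not overlap, each time with 12w lower, against 25.6% of all tested genes without overlap in either direction. DESeq2 called 5 of the 13 lower. With genes at 0 in any of the 27 libraries left out, 10 members remained with a median of -0.95. With each library left out in turn 2 to 4 members stayed called: *CYP86B1* was lost without 12w replicate 1 or 12w replicate 3 (adjusted p up to 0.083), and *ABCG2* without either of these or 4w replicate 2 (adjusted p up to 0.0746, log2 fold change -1.34 to -0.95).

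The suberin genes can be set beside markers of cell types that make suberin or related barriers. Of 7 markers of root meristem and endodermis 4 were in the table, and their summed level was 0.313 to 0.657 CPM at 12w and 10.4 to 28.9 CPM at 4w. *CASP1*, *CASP2* and *MYB36*, which build or control the Casparian strip of the endodermis, were listed at 0 in all 3 libraries of 12w. *ESB1*, a further Casparian strip gene, had 0.657, 0.357 and 0.313 CPM at 12w and 9.42, 5.10 and 16.8 CPM at 4w (adjusted p = 0.0804). None of the 4 was called in edgeR, whereas DESeq2 called *ESB1* (adjusted p = 0.000477), *MYB36* (0.0102) and *CASP1* (0.0208) lower. Their part in the suberin result was not tested. In bulk stems, fewer cells of a type and less RNA per cell cannot be told apart, and this holds for each group of genes below.

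**Figure D1:**
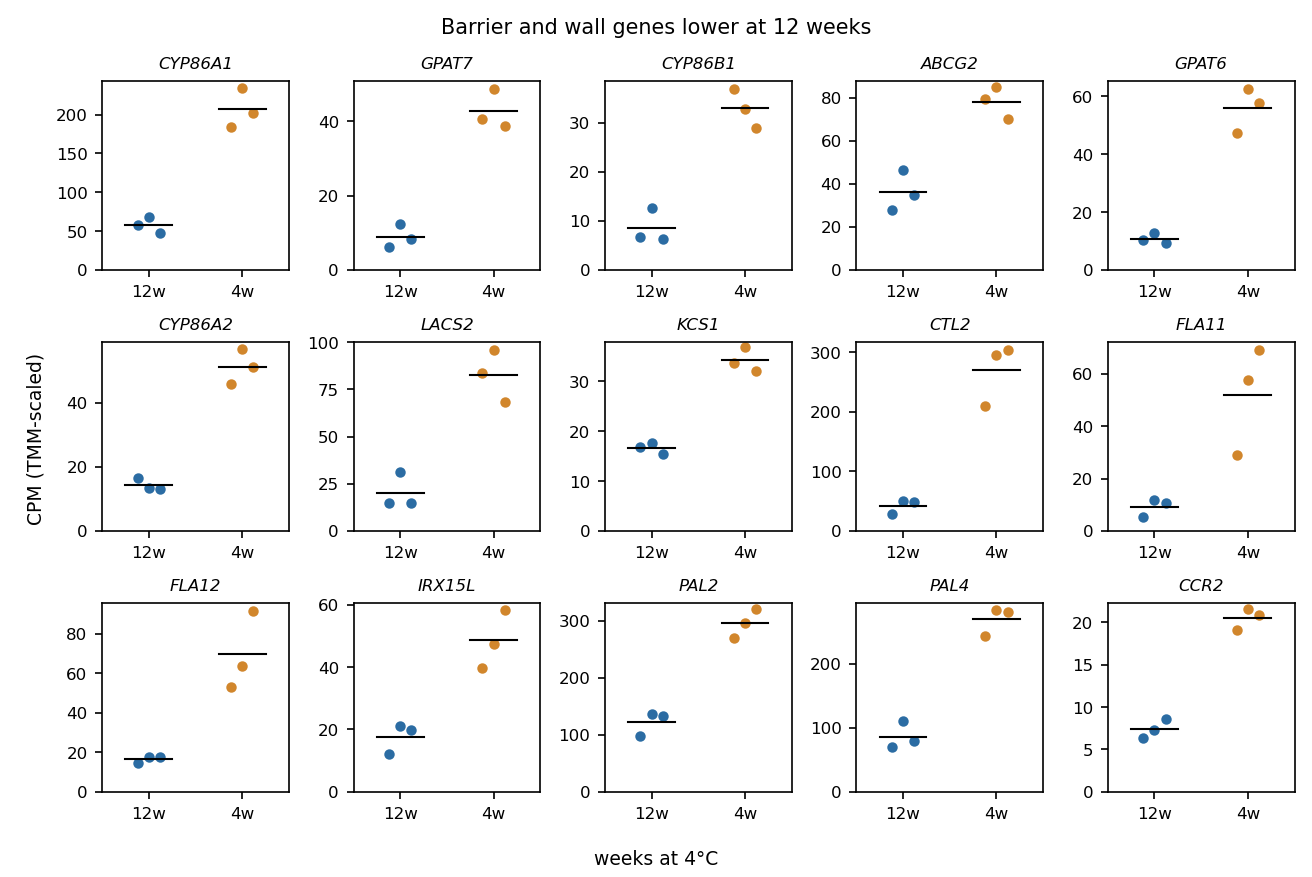
CPM (y axis, linear from 0) of 15 genes of suberin, cutin, secondary walls and lignin in the 3 libraries of 12w (blue) and the 3 libraries of 4w (orange); black bars are group means. By the naming rule all 12w libraries lie below all 4w libraries in every panel, for example 47.0 to 68.3 CPM against 184 to 234 CPM for *CYP86A1*.

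Cutin genes fell as well. Of 18 tested genes of cuticular wax and cutin 4 were lower at 12w (22.2%, against 1.17% of all tested genes) and none was higher. The median log2 fold change was -0.62 (-0.57 with genes at 0 in a group set at their bound, and -0.94 over the 8 genes with no 0 in any of the 27 libraries). *GPAT6* (Aa_G378850), an acyltransferase that makes cutin precursors in *A. thaliana* flowers, was at 10.2, 12.6 and 9.46 CPM at 12w, against 47.3, 62.6 and 57.8 CPM at 4w. The log2 fold change came to -2.37 (SE of 0.28, adjusted p = 0.000115). *LACS2* (Aa_G95870), which activates fatty acids for cutin, was at 14.8, 31.3 and 14.8 CPM at 12w and at 83.4, 96.0 and 68.3 CPM at 4w (log2 fold change of -2.02 with SE 0.43, adjusted p = 0.0106). *CYP86A2* (Aa_G299920), a hydroxylase of cutin fatty acids, was at 16.4, 13.5 and 13.2 CPM at 12w and at 45.8, 56.8 and 51.1 CPM at 4w (log2 fold change of -1.84 with SE 0.29, adjusted p = 0.00127). *KCS1* (Aa_G290640), an elongase of very long fatty acids, was at 16.9, 17.7 and 15.4 CPM at 12w and at 33.6, 36.8 and 32.1 CPM at 4w (log2 fold change of -1.04 with SE 0.17, adjusted p = 0.00142). None of these 4 genes overlapped between the groups, as the naming rule required. The wax enzyme *CER6* (Aa_G110400) had 7.88, 7.95 and 10.5 CPM at 12w and 13.4, 14 and 12.3 CPM at 4w, and was not called (adjusted p = 0.811). Without 12w replicate 3 only 2 of the 18 stayed called: *LACS2* was then lost, and was also lost without 12w replicate 1 (adjusted p up to 0.0619), while *KCS1* without 12w replicate 3 or 4w replicate 2 fell short of the fold threshold (log2 fold change -0.99 at the weakest, adjusted p at most 0.00974). All 5 markers of the epidermis were in the table, with a summed level of 27.7 to 28.9 CPM at 12w and 63.2 to 73.1 CPM at 4w. *ATML1* and *PDF2*, which specify epidermal identity, were listed at 0 in all 12w libraries, against 9.48, 10.5 and 11 CPM and 10.3, 10.6 and 6.40 CPM at 4w. The other epidermal markers, *PDF1*, *FDH* and *CER6*, were still detected at 12w. *PDF1* overlapped between the groups (log2 fold change -0.26). *FDH* was detected in every 12w library, each below every 4w library (log2 fold change -0.93, adjusted p = 0.591, edgeR). No epidermal marker was called in edgeR, whereas DESeq2 called *ATML1* (adjusted p = 0.00213) and *PDF2* (0.0391) lower. Their part in the cutin result was not tested.

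Of 16 tested secondary wall genes of cellulose, xylan and fasciclin proteins 4 fell (25%, against 1.17% of all tested genes) and none rose. The log2 fold change was below 0 in all 16, with a median of -1.69. With genes at 0 in any of the 27 libraries left out, 11 remained with a median of -1.06, 4 of them called lower, and DESeq2 called 6 of the 16 lower. *CTL2* (Aa_G20460), a chitinase-like protein of secondary wall cellulose deposition, was at 27.6, 49.4 and 48.3 CPM at 12w, against 209, 295 and 303 CPM at 4w (log2 fold change of -2.69 with SE 0.43, adjusted p = 0.00127). *FLA11* (Aa_G451910) and *FLA12* (Aa_G337330) encode fasciclin-like proteins of fibers and xylem. *FLA11* was at 5.26, 12.0 and 10.7 CPM at 12w and at 28.9, 57.8 and 69.0 CPM at 4w (log2 fold change of -2.48 with SE 0.52, adjusted p = 0.00871). *FLA12* was at 14.7, 17.5 and 17 CPM at 12w and at 53.1, 63.6 and 91.6 CPM at 4w (log2 fold change of -2.07 with SE 0.40, adjusted p = 0.00484). *IRX15L* (Aa_G165840), which acts in xylan synthesis, was at 12.0, 21.1 and 19.7 CPM at 12w and at 39.8, 47.5 and 58.2 CPM at 4w (log2 fold change of -1.46 with SE 0.30, adjusted p = 0.0072). The cellulose synthases of the secondary wall were not called in edgeR. *CESA8* (Aa_G150190) was listed at 0 in 12w replicate 1 and was at 23.4 and 20.0 CPM in the others, against 63.3, 76.0 and 102 CPM at 4w (adjusted p = 0.149, but 0.0369 in DESeq2, which called it lower), and *CESA7* (Aa_G264900) was at 0, 36.0 and 29.9 CPM at 12w and at 119, 123 and 139 CPM at 4w (adjusted p = 0.179). *CESA4* (Aa_G89560) was listed at 0 in 2 libraries and at 38.0 CPM in the third at 12w, and was at 84.1, 141 and 149 CPM at 4w (adjusted p = 0.547). The xylem markers other than *CESA* genes overlapped between the groups. *XCP1* was at 9.09, 45.6 and 21.6 CPM at 12w and at 65.3, 44.2 and 45.6 CPM at 4w (adjusted p = 0.439, edgeR). *XCP2* was at 4, 24.5 and 12.7 CPM at 12w and at 43.2, 23.2 and 19.1 CPM at 4w (adjusted p = 0.464). The summed level of 5 xylem markers, the 3 *CESA* genes among them, was 13.1, 129 and 122 CPM at 12w and 375, 407 and 455 CPM at 4w, so that 12w replicate 1 stands apart from the other 12w libraries. Of the 5 none was called in edgeR and *CESA8* alone in DESeq2, and their part in the secondary wall result was not tested. Without that library 3 of the 16 genes stayed called, *FLA11* not (adjusted p = 0.0557).

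Of 15 tested regulators of secondary walls, only *NST1* (Aa_G462260), a NAC factor that switches on wall thickening in fibers, was called in edgeR, while DESeq2 called 2 of them lower. It was listed at 0 in 2 libraries and was at 2.44 CPM in the third at 12w, and was at 10.5, 10.2 and 13.7 CPM at 4w (adjusted p = 0.047). The call was lost without any of the 4w libraries and without 12w replicate 1 or 12w replicate 2 (adjusted p up to 0.106). The list's median log2 fold change was -0.57. The switches that act next were low in both groups. *MYB46* (Aa_G155050) had 0, 0.968 and 1.32 CPM at 12w and 1.63, 0 and 1.7 CPM at 4w, and *MYB83* (Aa_G302040) had 0, 0.764 and 0.940 CPM at 12w and 0, 1.3 and 0.906 CPM at 4w.

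In the lignin pathway 3 of 22 tested genes fell (13.6%, against 1.17% of all tested genes) and none rose, with a median log2 fold change of -0.77. The called genes act at both ends of monolignol synthesis. *PAL2* (Aa_G14280) and *PAL4* (Aa_G338680) encode phenylalanine ammonia-lyase, which opens the pathway. *PAL2* was at 97.3, 137 and 133 CPM at 12w, against 270, 296 and 320 CPM at 4w (log2 fold change of -1.27 with SE 0.17, adjusted p = 0.000351). *PAL4* was at 69.7, 110 and 79.1 CPM at 12w and at 243, 284 and 280 CPM at 4w (log2 fold change of -1.64 with SE 0.23, adjusted p = 0.000509). *CCR2* (Aa_G21770), a cinnamoyl-CoA reductase, was at 6.41, 7.28 and 8.58 CPM at 12w and at 19.1, 21.5 and 20.8 CPM at 4w (log2 fold change of -1.46 with SE 0.26, adjusted p = 0.00277). These 3 calls held with each library left out in turn. *C4H* (Aa_G552340), the hydroxylase of the second step, moved by less than 2-fold, with 257, 325 and 270 CPM at 12w and 432, 475 and 460 CPM at 4w (log2 fold change -0.68, adjusted p = 0.0202). *LAC4* (Aa_G150750), a laccase that joins monolignols, had 5.75, 27.0 and 18 CPM at 12w and 51.7, 56.4 and 72.5 CPM at 4w (adjusted p = 0.0765). In DESeq2 its adjusted p was 0.00853, and 6 of the 22 genes were called lower.

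**Figure D2:**
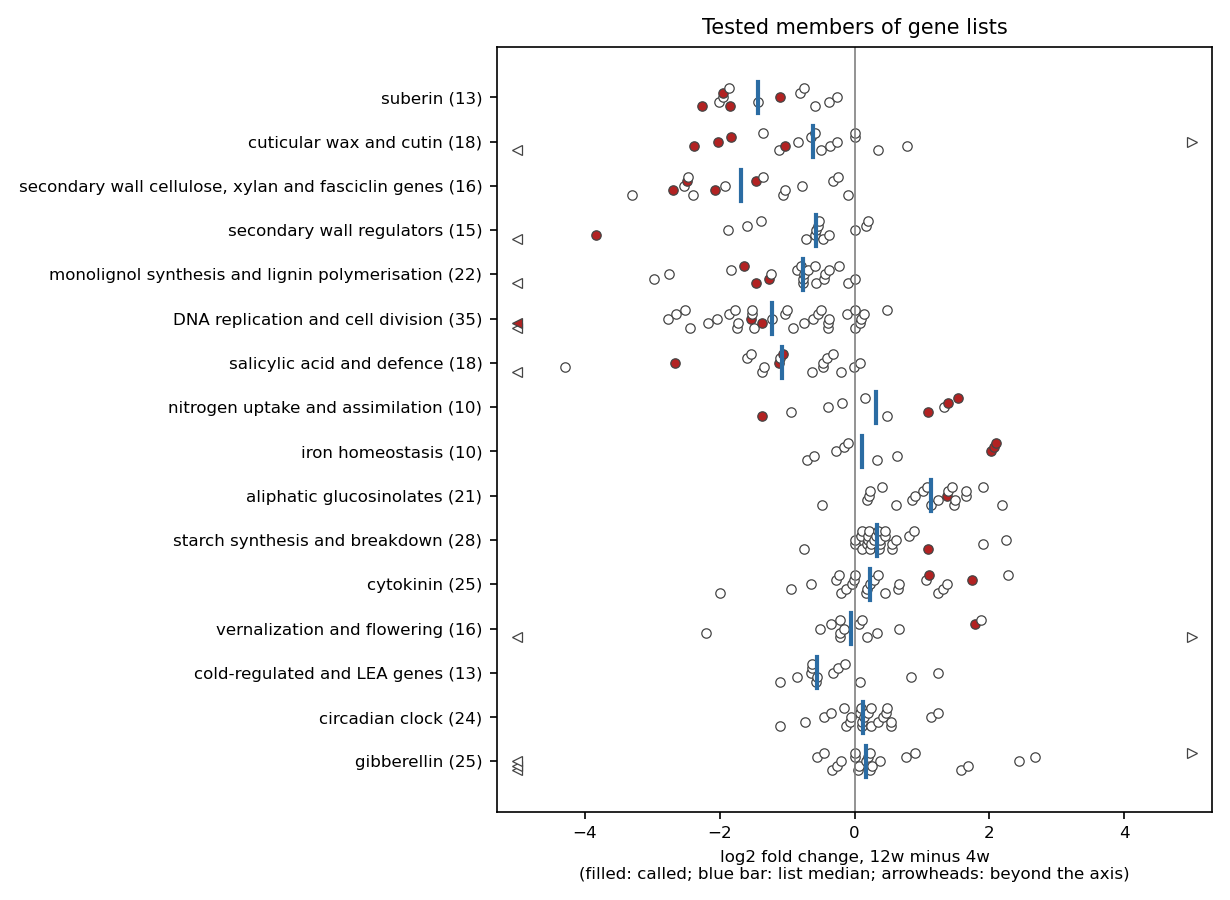
Log2 fold changes (12w minus 4w, x axis) of the tested members of 16 gene lists, with the number tested in parentheses; filled points were called, open points were not, blue bars are list medians and arrowheads lie beyond the axis. The medians of suberin (-1.43), secondary wall (-1.69) and cell division (-1.22) genes lie to the left of 0 and that of aliphatic glucosinolates (1.14) to the right, and most points in each list are open.

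Genes of DNA replication and cell division had a median log2 fold change of -1.22 over 35 tested members. Of these 3 fell (8.57%, against 1.17% of all tested genes) and none rose. *KNOLLE* (Aa_G442620), the syntaxin that builds the new wall between daughter cells, was at 15.8, 14.2 and 16.5 CPM at 12w, against 33.4, 43.5 and 43.9 CPM at 4w (log2 fold change of -1.38 with SE 0.23, adjusted p = 0.00179). *TSO2* (Aa_G120840), a subunit of ribonucleotide reductase, was at 11.5, 13.3 and 15 CPM at 12w and at 24.4, 36.5 and 54.0 CPM at 4w (log2 fold change of -1.53 with SE 0.35, adjusted p = 0.0151). Its count equalled that of the neighbouring gene in 1 of the 6 libraries, and its call was lost when 4w replicate 3, 12w replicate 1 or 12w replicate 2 was left out (adjusted p up to 0.0938). *CYCB2.2* (Aa_G157120), a mitotic cyclin, was listed at 0 in all 12w libraries and was at 3.14, 3.33 and 3.06 CPM at 4w (adjusted p = 0.00322). DESeq2 called 7 of the 35 lower. Many members were listed at 0 in some libraries, and with genes at 0 in any of the 27 libraries left out, 12 members remained with a median of -0.50 and 4 of them called lower. The D-type cyclin *CYCD2.1* (Aa_G161400), which acts at entry into the cycle, had 97.1, 106 and 108 CPM at 12w and 99.0, 101 and 93.6 CPM at 4w (log2 fold change of 0.08 with SE 0.11, adjusted p = 0.858). The shoot meristem gene *STM* was at 69.2, 64.6 and 56.0 CPM at 12w and at 61.4, 61.5 and 66.9 CPM at 4w.

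Of 18 tested genes of salicylic acid and defence 3 fell (16.7%, against 1.17% of all tested genes) and none rose. The log2 fold change was below 0 in 17 of the 18, with a median of -1.08, or -0.84 with genes at 0 in a group set at their bound. Without 4w replicate 2 the median was -0.44, and DESeq2 called 5 of the 18 lower. *PR1* (Aa_G739930), the pathogenesis-related protein that marks salicylic acid responses, was at 26.1, 54.5 and 39.5 CPM at 12w, against 301, 232 and 225 CPM at 4w (log2 fold change of -2.66 with SE 0.55, adjusted p = 0.00859). Its count equalled that of a neighbouring gene in 5 of the 6 libraries, so its own share of these reads is not known. *WRKY54* (Aa_G281250), a transcription factor of the same response, was at 25.1, 27.6 and 31.0 CPM at 12w and at 53.7, 60.0 and 60.6 CPM at 4w (log2 fold change of -1.06 with SE 0.17, adjusted p = 0.00127). *DMR6* (Aa_G45320), an enzyme that breaks down salicylic acid, was at 28.6, 21.6 and 34.0 CPM at 12w and at 59.1, 65.8 and 58.8 CPM at 4w (log2 fold change of -1.12 with SE 0.31, adjusted p = 0.0448). The *DMR6* call was lost whichever of the 6 libraries was left out (adjusted p up to 0.167). Without 12w replicate 1 none of the 3 stayed called: *PR1* then had an adjusted p of 0.0554, and *WRKY54* a change just under 2-fold. The salicylic acid receptor *NPR1* (Aa_G135650) had 100, 91.4 and 100 CPM at 12w and 102, 91.8 and 99.0 CPM at 4w.

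Nitrate genes were among those that rose. Of 10 tested genes of nitrogen uptake and assimilation 3 were higher at 12w (30%, against 0.765% of all tested genes) and 1 was lower (10%, against 1.17%). The median log2 fold change was 0.31, which was 0.05 without 12w replicate 2 and 0.17 without 4w replicate 3. *NIA2* (Aa_G525030), a nitrate reductase, was at 262, 447 and 297 CPM at 12w, against 143, 102 and 101 CPM at 4w (log2 fold change of 1.54 with SE 0.18, adjusted p = 9.81e-05). *NIR1* (Aa_G384620), the nitrite reductase that takes the next step, was at 65.8, 90.6 and 81.8 CPM at 12w and at 36.7, 35.7 and 39.9 CPM at 4w (log2 fold change of 1.09 with SE 0.21, adjusted p = 0.00559). *NRT1.1* (Aa_G261860), a nitrate transporter and sensor, was at 102, 126 and 123 CPM at 12w and at 39.5, 56.6 and 38.4 CPM at 4w (log2 fold change of 1.38 with SE 0.26, adjusted p = 0.00368). *LBD38* (Aa_G53030), which represses nitrate-responsive genes in *A. thaliana*, moved the other way, with 12.5, 12.8 and 14.2 CPM at 12w and 28.1, 39.7 and 34.8 CPM at 4w (log2 fold change of -1.38 with SE 0.32, adjusted p = 0.0181). Its call was lost in 5 of the 6 fits that left out a library, the exception being 4w replicate 1 (adjusted p up to 0.0697). *NIR1* fell short of the fold threshold without 12w replicate 2 (log2 fold change 0.97). The *LBD38* relatives *LBD37* (Aa_G23700) and *LBD39* (Aa_G153260) had log2 fold changes of -0.39 and -0.95 and were not called, and *NIA1* (Aa_G121580), the other nitrate reductase, had 56.9, 103 and 71.1 CPM at 12w and 84.3, 70.7 and 53.7 CPM at 4w. The homolog of CLC-B (Aa_G508060, AT3G27170), of a family of vacuolar anion channels and exchangers, had the smallest adjusted p of the 15 higher genes with the largest changes, with 84.6, 90.5 and 122 CPM at 12w against 17, 13.3 and 11 CPM at 4w (log2 fold change of 2.85 with SE 0.26, adjusted p = 6.27e-06).

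All 3 tested nicotianamine synthase genes rose. Nicotianamine binds iron and other metals and carries them through the plant. *NAS1* (Aa_G303950) was at 12.5, 24.4 and 27.3 CPM at 12w, against 6.98, 3.91 and 4.87 CPM at 4w (log2 fold change of 2.03 with SE 0.30, adjusted p = 0.000613). *NAS3* (Aa_G19040) was at 5.69, 7.54 and 4.45 CPM at 12w and at 1.74, 1.35 and 1.02 CPM at 4w (log2 fold change of 2.1 with SE 0.37, adjusted p = 0.00267), and *NAS4* (Aa_G365890) at 7.77, 14.8 and 12.0 CPM at 12w and at 3.26, 3.13 and 1.87 CPM at 4w (log2 fold change of 2.07 with SE 0.37, adjusted p = 0.00296). The lowest 12w library of each gene lay above its highest 4w library, as the naming rule required. The 3 calls held with each library left out in turn but not in a fit of the 6 libraries alone. No other of the 10 tested iron genes was called, and the list's median was 0.12, but 0.02 without 12w replicate 1, or -0.09 over the 9 genes with no 0 in any of the 27 libraries. The ferritin *FER1* (Aa_G53890), which stores iron, had 488, 546 and 487 CPM at 12w and 836, 642 and 820 CPM at 4w (adjusted p = 0.265).

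**Figure D3:**
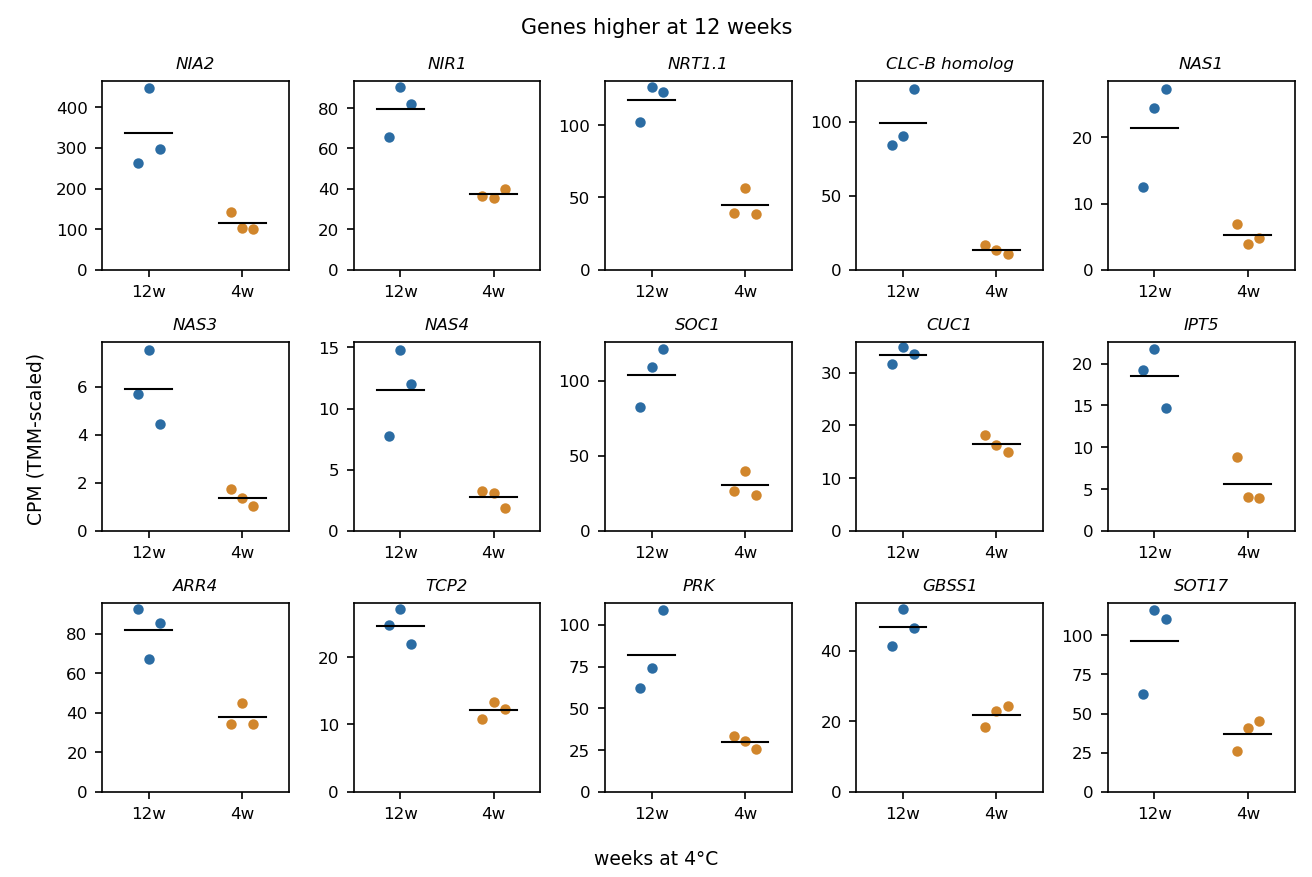
CPM (y axis, linear from 0) of 15 genes that were higher at 12w, in the 3 libraries of 12w (blue) and the 3 libraries of 4w (orange); black bars are group means. By the naming rule the groups do not overlap in any panel, and *NIA2* lies at 262 to 447 CPM at 12w against 101 to 143 CPM at 4w.

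Among 16 tested genes of vernalization and flowering only *SOC1* (Aa_G15970), a MADS-box integrator of flowering signals, was called in edgeR. DESeq2 called 3 of the 16 higher, the others being *CO* and *FUL*, which activate flowering. *SOC1* was at 82.3, 109 and 121 CPM at 12w, against 26.7, 40.0 and 24.2 CPM at 4w (log2 fold change of 1.78 with SE 0.38, adjusted p = 0.0107). The call did not hold without 4w replicate 1 or 4w replicate 3 (adjusted p up to 0.0686). *SVP* (Aa_G311490), a repressor of flowering, had 365, 261 and 300 CPM at 12w and 281, 273 and 261 CPM at 4w (log2 fold change of 0.18 with SE 0.16, adjusted p = 0.678). *TOE1* (Aa_G158280), an AP2-like repressor, had 215, 182 and 201 CPM at 12w and 119, 129 and 130 CPM at 4w, a change below 2-fold (log2 fold change 0.66, adjusted p = 0.000702). The homolog of *MAF1* (Aa_G720620), a relative of the flowering repressor *FLC*, was singled out after its values were seen. It had 2.52, 0.560 and 0 CPM at 12w and 137, 30.7 and 144 CPM at 4w, and it was not called (adjusted p = 0.0999). *MAF3* (Aa_G585310) had 81.7, 0 and 0.501 CPM at 12w and 137, 97.4 and 144 CPM at 4w (adjusted p = 0.721). The counts of *MAF1* and *MAF3* were identical in 2 of the 6 libraries, so the reads cannot be assigned to either of these related genes with certainty. Homologs of *FLC*, *VIN3*, *FT*, *LFY* and *AP1* were not analysed here. The single floral organ marker in the table, *AG*, was at most 0.501 CPM at 12w and 0.233 CPM at 4w.

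The study names root-associated genes, chosen on these samples, and describes them as raised during cold in comparisons with stems before cold. Several had higher means at 4w than at 0w, a step that was not tested here. The means at 0w and 4w were 65.4 and 185 CPM for *RAV1*, 114 and 228 CPM for *PUB9*, and 20.6 and 90.3 CPM for *PMT5*. They were 79.1 and 188 CPM for *NRP2* and 8.7 and 21.7 CPM for *HAE*. *NRT2.1*, *EXPA17* and *PILS5* were listed at 0 in both groups. Of 13 genes on that list, 12 were tested at 12w relative to 4w. Only *CUC1* (Aa_G1120), a NAC factor of organ boundaries, was called in edgeR: it was at 31.7, 34.8 and 33.5 CPM at 12w, against 18.2, 16.3 and 14.9 CPM at 4w. The log2 fold change of 1.02 (SE 0.14, adjusted p = 0.000347) lies just above the fold threshold, and without 4w replicate 3 or 12w replicate 2 it fell below it (0.94 at the lowest, with adjusted p at most 0.00396). The 11 others had values on either side. *TCTP1* (Aa_G617210), a growth regulator, had 2870, 1210 and 2620 CPM at 12w and 1110, 1320 and 1550 CPM at 4w (adjusted p = 0.251), so the groups overlap. *RAV1* (Aa_G164300) had 152, 126 and 169 CPM at 12w and 185, 185 and 183 CPM at 4w (adjusted p = 0.515), and *HAE* (Aa_G55490), a receptor kinase of cell separation, had 9.42, 14 and 16.9 CPM at 12w and 14.4, 26.6 and 24.1 CPM at 4w (adjusted p = 0.169). *PUB9* (Aa_G174650) had 281, 263 and 252 CPM at 12w and 231, 219 and 235 CPM at 4w (adjusted p = 0.256). For *PMT5* (Aa_G429460) the values were 89.9, 137 and 134 CPM at 12w and 95.7, 107 and 68.7 CPM at 4w (adjusted p = 0.504), and for *NRP2* (Aa_G548310) they were 89.4, 202 and 207 CPM at 12w and 177, 194 and 192 CPM at 4w (adjusted p = 0.862). The remaining 5 were low in both groups. *NRT2.1* (Aa_G286010), a high-affinity nitrate transporter, and *EXPA17* (Aa_G46840), an expansin, were listed at 0 in all 4w libraries, and they reached 0.548, 3.87 and 0 CPM and 0.110, 2.90 and 0 CPM at 12w (adjusted p = 0.345 and 0.104). DESeq2 called both higher (adjusted p = 3.95e-05 and 0.00914), and so 3 of the 12. *AGL44* (Aa_G105120) was at 2.3, 2.8 and 0.501 CPM at 12w and at 0.523, 3.44 and 1.98 CPM at 4w, *PUCHI* (Aa_G280250) stayed at or below 0.255 CPM at 12w and 0.872 CPM at 4w, and *PILS5* (Aa_G199530) was listed at 0 in all 6 libraries. From the separate list of lateral and adventitious root formation, *SHR* (Aa_G561550), which patterns the tissue around the vascular strand, was lower: 7.72, 7.44 and 7.77 CPM at 12w and 15.9, 13.2 and 20.4 CPM at 4w (log2 fold change of -1.11 with SE 0.23, adjusted p = 0.00895). Without 4w replicate 3 this call was lost (adjusted p = 0.0607). The other 14 tested genes of that list were not called.

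The calls among hormone genes stand beside 0.765% of all tested genes called higher and 1.17% called lower. Of 25 tested cytokinin genes 2 rose. *IPT5* (Aa_G83560), an enzyme of cytokinin synthesis, was at 19.3, 21.7 and 14.7 CPM at 12w, against 8.78, 4.01 and 3.91 CPM at 4w (log2 fold change of 1.74 with SE 0.35, adjusted p = 0.00672). *ARR4* (Aa_G226650), a response regulator induced by cytokinin, was at 92.6, 67.4 and 85.2 CPM at 12w and at 34.5, 44.9 and 34.4 CPM at 4w (log2 fold change of 1.11 with SE 0.23, adjusted p = 0.00985). Both calls were lost without 4w replicate 3, and that of *ARR4* also without 12w replicate 1 (adjusted p up to 0.0522 and 0.0607). For auxin, *GH3.9* (Aa_G12820), of a family that joins auxin to amino acids, was listed at 0 in all 12w libraries and was at 13.7, 5.42 and 20.0 CPM at 4w (adjusted p = 0.0431). Its call was lost whichever of the 6 libraries was left out (adjusted p up to 0.124). Of 19 tested *SAUR* genes, small auxin-induced RNAs, 1 rose. It was *SAUR6* (Aa_G10070), which lies under the level set for naming genes and was singled out after its values were seen. It was at 0.493, 0.713 and 0.877 CPM at 12w and at 0.116, 0.0521 and 0.113 CPM at 4w (log2 fold change of 2.81 with SE 0.68, adjusted p = 0.0219). With any 4w library or 12w replicate 3 left out no *SAUR* gene was called, and DESeq2 called 1 higher and 1 lower. No gene was called in edgeR among 12 tested genes of auxin transport, 22 Aux/IAA repressors, 25 genes of gibberellin, 27 of abscisic acid, 28 of ethylene, 27 of jasmonate and 13 of brassinosteroid. An unadjusted p under 0.05 was reached by 6, 6, 3, 9, 6, 5 and 2 of them, in the same order, and by 16.3% of all tested genes. DESeq2 called 1 gene of auxin transport higher, 2 of gibberellin lower and 1 of ethylene higher.

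Among genes of metabolism and growth, aliphatic glucosinolates, the sulfur-containing defence compounds of Brassicaceae, had log2 fold changes above 0 in 20 of 21 tested genes. Their median was 1.14, yet only *SOT17* (Aa_G119000), a sulfotransferase of the last core step, was called. It was at 62.3, 116 and 110 CPM at 12w, against 25.8, 40.6 and 45.0 CPM at 4w (log2 fold change of 1.37 with SE 0.36, adjusted p = 0.0343). The call was lost without any of the 4w libraries and without 12w replicate 2 or 12w replicate 3 (adjusted p up to 0.145). DESeq2 called 5 members higher. *CYP79F1* (Aa_G65470), which commits amino acids to the pathway, was at 66.8, 136 and 156 CPM at 12w and at 23.0, 53.7 and 51.8 CPM at 4w (adjusted p = 0.0995, and 0.0203 in DESeq2). In both genes replicate 1 was the lowest library of its group. *GBSS1* (Aa_G376040), the starch synthase of amylose, rose, with 41.3, 51.8 and 46.5 CPM at 12w and 18.5, 22.8 and 24.2 CPM at 4w (log2 fold change of 1.09 with SE 0.23, adjusted p = 0.0106). It was the only gene called of 28 for starch, of which 26 were above 0, and its call did not hold without 4w replicate 1 or 12w replicate 2 (adjusted p up to 0.059). *PRK* (Aa_G302490), phosphoribulokinase of the Calvin cycle, was at 62.1, 74.4 and 109 CPM at 12w and at 33.5, 30.7 and 25.9 CPM at 4w (log2 fold change of 1.45 with SE 0.30, adjusted p = 0.00782), and it was the only one called of 38 photosynthesis genes, whose median was -0.10. That call did not hold without 4w replicate 3 or 12w replicate 3 (adjusted p up to 0.0531). *SQD2* (Aa_G490130), a sulfolipid synthase induced by low phosphate, was at 15, 22.2 and 16.5 CPM at 12w and at 8.89, 10.5 and 7.13 CPM at 4w (log2 fold change 1.02, adjusted p = 0.0208, lost where 4w replicate 1, 4w replicate 3 or 12w replicate 2 was left out, with adjusted p up to 0.114). *TCP2* (Aa_G423060), a factor that limits organ growth, was at 24.7, 27.2 and 21.9 CPM at 12w and at 10.8, 13.4 and 12.3 CPM at 4w (log2 fold change 1.02, adjusted p = 0.00306, below the fold threshold without 4w replicate 1 or 12w replicate 2).

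Flavonoid genes had a median log2 fold change of 1.58 over 17 tested members, and of 0.96 with genes at 0 in a group set at their bound. Many of these genes were listed at 0 in most libraries. *F3H* (Aa_G122450), a flavanone hydroxylase, was the only member called in edgeR, with 3.29, 11.6 and 0 CPM at 12w and 0 in all 4w libraries (adjusted p = 0.0327). *DFR* (Aa_G150400) and *CHI* (Aa_G566600) were detected only in 12w replicate 2 of the 6 libraries, at 3.57 and 2.8 CPM, and *LDOX* (Aa_G19930) was at 1.2, 11.4 and 0.376 CPM at 12w. DESeq2 called 6 of the 17 higher, *DFR* and *CHI* among them. With genes at 0 in any of the 27 libraries left out, 4 members remained with a median of 0.08. Over the fits that left out a library the list's median ranged between 0.00 and 2.61 and 0 to 2 members were called. Lower at 12w were *XTH24* (Aa_G156070), a xyloglucan enzyme of wall remodelling, and the aquaporin *PIP1.3* (Aa_G291140). *XTH24* was at 293, 205 and 251 CPM at 12w, against 688, 976 and 817 CPM at 4w (log2 fold change of -1.73 with SE 0.33, adjusted p = 0.00422). *PIP1.3* was at 80.0, 87.0 and 99.6 CPM at 12w and at 148, 172 and 217 CPM at 4w (log2 fold change of -1.01 with SE 0.19, adjusted p = 0.00422, below the fold threshold without 4w replicate 3 or 12w replicate 1). They were the only calls among 17 and 13 tested genes of their families.

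No tested member of the cold-regulated and LEA list or the CBF pathway list was called in edgeR. Over all tested genes 0.765% were called higher and 1.17% lower. No homolog of *COR15A*, *COR15B*, *COR47*, *KIN1*, *CBF1* or *CBF2* was listed, and *RD29B* was not tested, so these genes could not be called. The peroxidase RCI3 homolog (Aa_G235500), which is in neither list, was called lower and is given below. At these shares a short list can hold no call although its members moved. Of 13 tested cold-regulated and LEA genes 10 were below 0, with a median log2 fold change of -0.56, 5 reached an unadjusted p under 0.05 and DESeq2 called 1 lower. *COR413-PM1* (Aa_G81680), a membrane protein induced by cold, was at 651, 607 and 587 CPM at 12w and at 898, 978 and 1000.0 CPM at 4w, a change below 2-fold (log2 fold change -0.64, adjusted p = 0.00867). The dehydrin *ERD10* (Aa_G622600) was at 2190, 2100 and 2080 CPM at 12w and at 3150, 3100 and 3190 CPM at 4w (log2 fold change -0.57, adjusted p = 0.363), and *ELIP1* (Aa_G413630), a light-stress protein of the chloroplast, was at 129, 185 and 187 CPM at 12w and at 70.9, 72.6 and 69.9 CPM at 4w (adjusted p = 0.252). Neither gene overlapped between the groups, as held for 25.6% of all tested genes. No gene was called among 12 tested genes of the CBF pathway, 9 of raffinose synthesis, 24 of the circadian clock and 11 heat shock proteins, of which 4, 0, 5 and 1 reached an unadjusted p under 0.05 and DESeq2 called 1 CBF pathway gene higher. In all, 22 of 45 lists held no call, with 355 tested genes between them, of which 82 reached an unadjusted p under 0.05 and DESeq2 called 7 higher and 8 lower. The other 23 lists hold the 17 genes called higher and the 27 called lower of 760 tested list genes.

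Beyond the lists, the 15 called genes with the largest changes in each direction were taken from genes with a homolog. Of the higher ones, 5 were listed at 0 in all 4w libraries. An amidase (Aa_G385170, AT4G34880) was at 74.0, 64.9 and 6.33 CPM at 12w (adjusted p = 0.0297), the ferredoxin-dependent glutamate synthase *GLU1* (Aa_G140770, AT5G04140), which assimilates ammonium in leaves, at 25, 28.6 and 44.7 CPM (adjusted p = 0.0375), and the potassium transporter homolog KUP11 (Aa_G263930, AT2G35060) at 8.54, 6.83 and 9.78 CPM (adjusted p = 0.0023). *GLU1* was at 109 CPM at 0w and 23.7 CPM at 8w on average, and its call was lost whichever of the 6 libraries was left out (adjusted p up to 0.124). The amidase call was lost without any 4w library and without 12w replicate 1 or 12w replicate 2 (adjusted p up to 0.104). A MYB factor related to DIVARICATA (Aa_G246250, AT5G58900) was at 17.7, 11.2 and 22.0 CPM at 12w and at 1.51, 2.19 and 2.32 CPM at 4w (log2 fold change of 3.08 with SE 0.79, adjusted p = 0.0327), a call that was lost when any of the 6 libraries but 12w replicate 2 was left out (adjusted p up to 0.12). A type 2C protein phosphatase (Aa_G757820, AT4G32950) was at 17.7, 21.5 and 15.6 CPM at 12w and at 4.24, 3.13 and 1.93 CPM at 4w (log2 fold change of 2.56 with SE 0.41, adjusted p = 0.00127), and a glutaredoxin (Aa_G663520, AT5G11930) at 7.83, 11.2 and 5.14 CPM at 12w and at 1.57, 1.35 and 1.59 CPM at 4w (log2 fold change of 2.42 with SE 0.49, adjusted p = 0.0072). The homolog of the drought-repressed gene DR4 (Aa_G1064460, AT1G73330) was at 165, 430 and 402 CPM at 12w and at 51.4, 120 and 48.1 CPM at 4w, but its counts were identical in all 6 libraries to those of another gene in the table, and its call was lost without 4w replicate 3 (adjusted p = 0.0562). In 2 further genes of the higher set (Aa_G339050 and Aa_G22760) 12w replicate 3 alone was far above the rest, at 256 CPM beside 43.7 and 41.0 CPM and at 52.1 CPM beside 10.4 and 5.20 CPM. Without that library their log2 fold changes were 1.03 and 0.77, and Aa_G22760 was no longer called. The other 5 (Aa_G287220, Aa_G110270, Aa_G213390, Aa_G259620 and Aa_G173890) lay at 1.07 to 15.6 CPM at 12w and at 0 to 4.22 CPM at 4w, and the calls of Aa_G110270 and Aa_G173890 were each lost in some fits that left out a library (adjusted p up to 0.13).

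Of the 15 lower genes, *GH3.9*, *NST1*, *CTL2* and *FLA11* are described above. The trehalose-phosphate phosphatase homolog TPPG (Aa_G42780, AT4G22590) was listed at 0 in all 12w libraries and was at 7.79, 8.86 and 9.80 CPM at 4w (adjusted p = 1e-08), and its mean was 4.90 CPM at 8w and 5.49 CPM at 16w. A class III peroxidase (Aa_G235500, AT1G05260, known as RCI3) was at 8.05, 9.88 and 5.95 CPM at 12w, against 37.6, 61.0 and 68.7 CPM at 4w (log2 fold change of -2.81 with SE 0.40, adjusted p = 0.000537). The lipid transfer protein LTP4 homolog (Aa_G499040, AT5G59310) was at 11.8, 12.5 and 11.7 CPM at 12w and at 69.6, 71.2 and 89.3 CPM at 4w (log2 fold change of -2.68 with SE 0.61, adjusted p = 0.0153), and its call did not hold without 4w replicate 3 or any 12w library (adjusted p up to 0.0656). The arabinogalactan protein AGP19 homolog (Aa_G182960, AT1G68725) was at 0.219, 4.53 and 4.01 CPM at 12w and at 112, 104 and 15 CPM at 4w (adjusted p = 0.0333, lost in all but the fit without 4w replicate 3, up to 0.107), and the plasmodesmal protein PDLP5 homolog (Aa_G68570, AT1G70690) at 0.329, 2.8 and 0.376 CPM at 12w and at 6.28, 8.59 and 7.76 CPM at 4w (adjusted p = 0.00618). The other 6 (Aa_G601480, Aa_G173910, Aa_G265950, Aa_G245280, Aa_G95980 and Aa_G61740) lay at 0 to 3.94 CPM at 12w and at 4.74 to 33.1 CPM at 4w, and of these only Aa_G265950 stayed called with each library left out (adjusted p at most 0.0135, against up to 0.174 for the others). All 12w libraries lay below all 4w libraries in each of these genes, which was a condition of their choice.

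Few genes were called over either step of 4 weeks. Between neighbouring durations 20 genes rose (0.103%) and 23 fell (0.119%) in edgeR at 8w relative to 4w, and 3 rose (0.0155%) and 1 fell (0.00517%) at 12w relative to 8w. DESeq2 called 214 higher and 267 lower in the first step, and 197 higher and 168 lower in the second. An unadjusted p under 0.05 was reached by 2144 genes in the first step and 1558 in the second. These steps share their libraries with the main comparison, so they describe its course and do not add to it. *CYP86A1* averaged 131 ± 27.2 CPM before cold, 207 ± 25.3 at 4w, 103 ± 24 by 8w, 57.7 ± 10.7 at 12w, 21.8 ± 6.62 by 16w and 49.3 ± 26.6 at 21w (SD, n = 3 each). *GPAT6* had the same shape, with 23.5 ± 4.88 CPM before cold, 55.9 ± 7.80 at 4w, 25.1 ± 4.33 by 8w, 10.8 ± 1.65 at 12w, a listed 0 in all 3 libraries at 16w and 8.24 ± 3.94 at 21w. Both barrier genes had their highest mean of the 6 groups at 4w, above that before cold. The wall gene *FLA11* was instead highest before cold, with 387 ± 94.1 CPM before cold, 51.9 ± 20.7 at 4w, 19.7 ± 6.68 by 8w, 9.29 ± 3.56 at 12w, 23.7 ± 4.11 by 16w and 45.9 ± 15 at 21w. *NIA2* was lowest at 4w, with 619 ± 77.4 CPM before cold, 115 ± 24.2 at 4w, 207 ± 19.5 by 8w, 335 ± 98.3 at 12w, 309 ± 36.9 by 16w and 433 ± 12.1 at 21w. *SOC1* was at 11 ± 5.08 CPM before cold, 30.3 ± 8.48 at 4w, 62.3 ± 8.71 by 8w, 104 ± 19.7 at 12w, 108 ± 18.8 by 16w and 113 ± 29.1 at 21w, and at 36.0 ± 3.69 CPM at 12w+5dLD. The CLC-B homolog (Aa_G508060) had already passed the test at 8w against 4w, with a log2 fold change of 2.04 (adjusted p = 0.000443, edgeR).

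**Figure D4:**
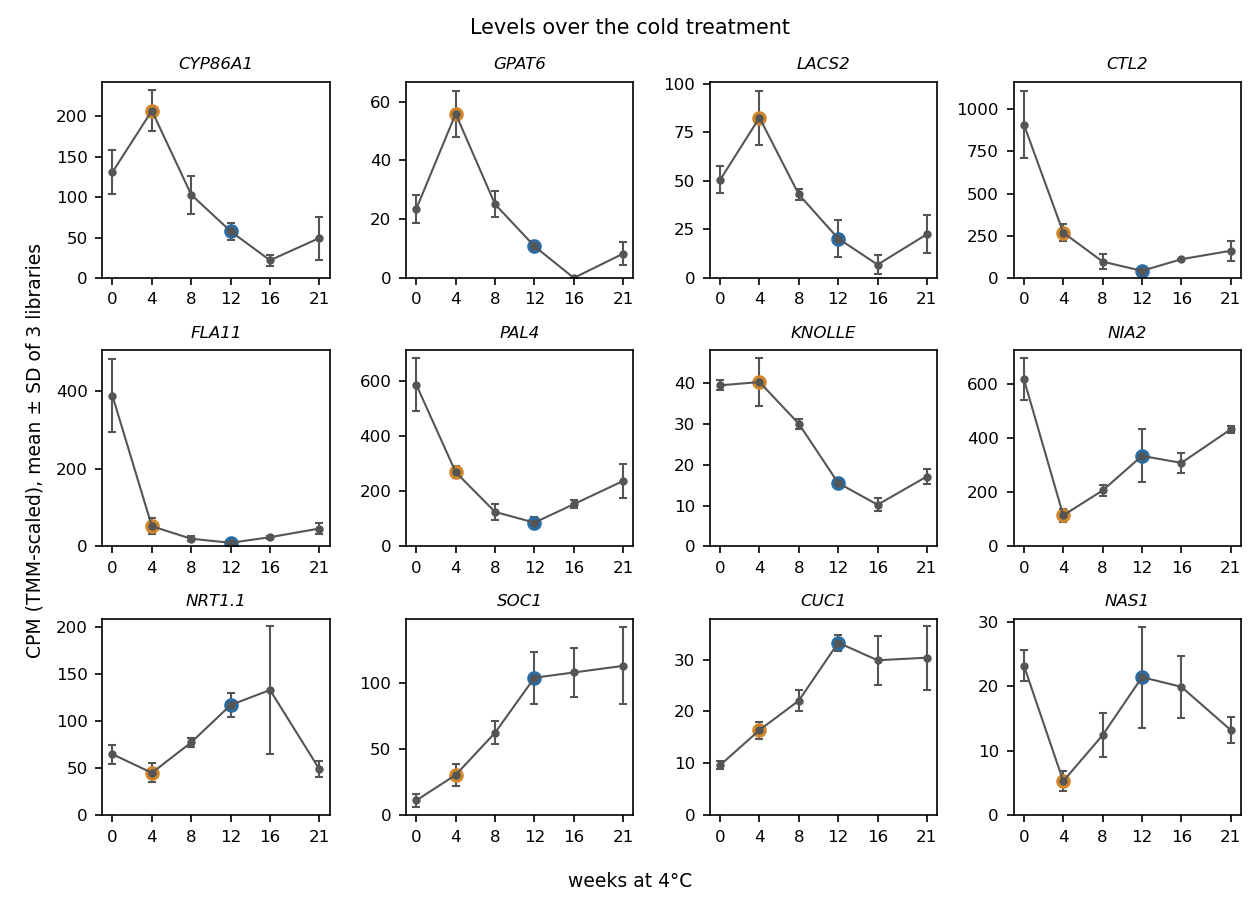
Mean CPM (y axis, linear from 0; error bars are the SD of 3 libraries) of 12 genes against weeks at 4°C (x axis), with 4w in orange and 12w in blue. *CYP86A1*, *GPAT6* and *LACS2* peak at 4w, the means of *CTL2*, *FLA11* and *PAL4* are highest at 0w and lowest at 12w, and that of *SOC1* lies between 104 and 113 CPM at 12w, 16w and 21w.

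The comparison of 16w with 8w spans the same number of weeks, and its group means use none of the 6 libraries. Both comparisons come from the same model, so each gene's estimate of the spread is shared between them. A gene called in one is therefore not independent of its call in the other. Of the 148 genes higher at 12w than at 4w, 120 (81.1%) had a log2 fold change above 0 at 16w against 8w, and 10 were called higher and 1 lower. Of the 227 lower genes 166 (73.1%) were below 0, and 42 were called lower and 1 higher. Over all tested genes 49.4% were above 0, and 59 (0.305%) were called higher and 139 (0.719%) lower. The median log2 fold change of the 13 suberin genes was -1.99 at 16w against 8w, with 5 called lower, and that of the 18 wax and cutin genes was -1.42, with 6 called lower. The 13 cold-regulated and LEA genes had a median of -1.2, with 5 called lower. *CYP86A1* had a log2 fold change of -2.24 (adjusted p = 0.00131) and *LACS2* of -2.65 (adjusted p = 0.0021). The 16 secondary wall genes had a median of 0.39 with no call, and the 22 lignin genes of 0.00 with 1 called lower, which was *CCR2* (log2 fold change -1.12, adjusted p = 0.0248). Division genes had a median of -0.81, with *KNOLLE* called lower (log2 fold change -1.55, adjusted p = 0.000855). Neither *NIA2* (log2 fold change 0.58, adjusted p = 0.109) nor *SOC1* (0.79, adjusted p = 0.357) passed, and none of the *NAS* genes did. The CLC-B homolog (Aa_G508060) was 0.99 higher on the log2 scale (adjusted p = 0.0314), just short of the fold threshold.

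**Figure D5:**
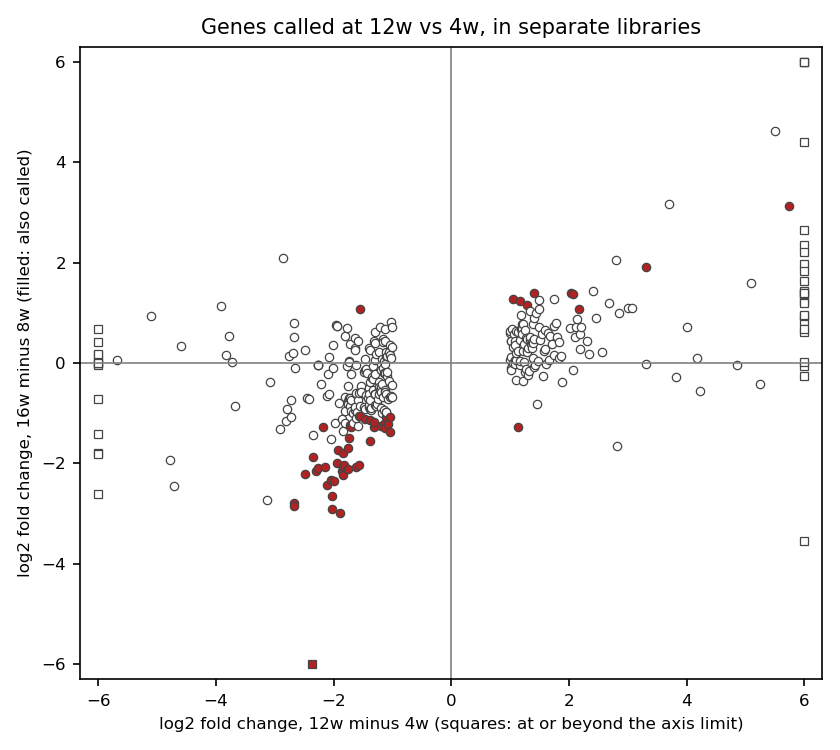
Log2 fold changes of the 375 called genes at 12w minus 4w (x axis) and at 16w minus 8w (y axis). The comparisons share no group of libraries but share the model's estimate of the spread. Filled points were also called at 16w against 8w, and squares lie at or beyond the axis limit. More points lie in the lower left (166 of 227 lower genes) and upper right (120 of 148 higher genes) than in the other corners, and most filled points are in the lower left.

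The calls rest on 3 libraries a group. Without 4w replicate 3 the number of called genes fell to 224, and leaving out any other of the 6 libraries left 260 to 316. A fit of these 6 libraries alone called 313 genes, of which 176 were among the 375, and it lost *FLA11*, *IRX15L*, *NST1*, *ABCG2*, *LACS2*, *TSO2*, *SHR*, *SOT17*, *IPT5*, *SQD2*, *NIA2* and the *NAS* genes. Among the genes with the largest changes it also lost Aa_G385170, Aa_G110270, Aa_G213390, Aa_G259620, Aa_G339050, Aa_G173890, Aa_G22760, Aa_G1064460, Aa_G173910, Aa_G182960 and Aa_G68570. *NST1* was also lost with no filter on low counts, and *SQD2* and *TCP2* with a stricter one. The time of day at harvest is not given in the sources used here.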

How the data were processed

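Stem RNA was sequenced as 150-bp single reads from 27 libraries of 9 groups. Alignment by the authors used HISAT2, StringTie gave the transcripts, and they deposited a table of raw gene counts, which prepDE derives from coverage and read length. For these tools the version was not stated in the sources used. The deposited workbook of the authors' own DESeq2 comparisons (log2 fold changes and adjusted p-values) was not used.

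Counts were analysed as deposited with edgeR 4.0.16 in R 4.3.3: filterByExpr by group, TMM scaling and a quasi-likelihood fit of 9 group means (18 residual degrees of freedom). Contrasts were 12w minus 4w, 8w minus 4w, 12w minus 8w and 16w minus 8w, with Benjamini-Hochberg adjustment over all 19337 tested genes. A call needed adjusted p under 0.05 and at least 2-fold. SE is the size of the log2 fold change divided by the square root of F. The test was checked on simulated counts with 200 changed genes, of which 69.5% were recovered, so a gene that was not called may still have changed. The changed genes were drawn from those with higher counts, and every set change was larger than the fold threshold. Recovery of changes at that threshold, or of genes with low counts, was not measured. DESeq2 1.42.0, other scalings, filters, a replicate block and leaving out each library were alternatives. A total of 3 counts in a library, the limit that a count of 0 allows, equals 0.168 CPM at 12w and 0.167 CPM at 4w, for counting error only.

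Genes were named by rule: up to 4 called members per direction of each of 45 lists and the 15 largest called changes per direction with a homolog (groups not overlapping, higher mean at least 5 CPM; for the 15, no 0 in the higher group and no count of 100 or more equal to a neighbour's), plus flowering and root-associated genes fixed by name. Other list members, and the values of genes that were not called, were chosen as examples after their values were seen. The comparison, members and lists were chosen with earlier results of these data known.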

Additional observations from a re-analysis of the deposited data

How the results depend on the processing

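With DESeq2 in place of edgeR 963 genes were called at 12w against 4w, 481 at 8w against 4w, 365 at 12w against 8w and 90 of the list genes, against 375, 43, 4 and 44 in edgeR. With adjusted p alone the counts were 731, 85, 8 and 76. Leaving out a library gave 224 to 316 calls at 12w against 4w (fewest without 4w replicate 3), 11 to 42 at 8w against 4w, 7 to 15 at 12w against 8w and 28 to 37 list genes. Other scalings, filters and the handling of shared or zero counts gave 340 to 387 calls at 12w against 4w. In alternatives chosen after seeing the data, 419 genes were called without genes at 0 in any library, 471 without 21w+5dLD replicate 3 and 368 with identical counts counted once. The replicate numbers did not pair the samples: same-numbered libraries of 12w and 4w had correlated deviations of 0.00, 0.05 and 0.05, and not every library correlated best with its own number. With the replicate number as a block 341 genes were called (330 of the 375 among them), 32 at 8w against 4w, 4 at 12w against 8w and 44 list genes, and 291 called genes kept their sign at 16w against 8w, beside 286 without it. This fit did not call *GH3.9*, *DMR6*, Aa_G140770 and Aa_G95980. No named gene changed direction among those called in the main fit or in the alternative. Named genes called in neither fit were not checked for direction. Of 67 named genes called, 37 were called in every alternative that kept all 6 libraries and 29 in every fit without a library. Precision is limited by 3 libraries a group and by zeros beside high counts.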
